A study of Mus musculus with 12 samples.

Results

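A cassette exon lies between 2 introns and is either joined to both neighbouring exons or left out with both introns in 1 step. Of 2411 cassette exons that could be read from the tested intron clusters, 832 (34.5%) were 52 to 250 nt long with a length divisible by 3. Such an exon adds or removes whole codons without moving the reading frame downstream, and it is called frame-keeping here. Members were taken from clusters of exactly 3 introns, in which the first and second intron do not overlap and the third, skipping intron has the start of the first and the end of the second. The length is the number of bases from the end of the first to the start of the second intron, a reading that gives 3 nt for the exon of *Cyth2* and 61 nt for that of *Btbd7*. The rule uses positions and lengths only. The 832 exons make up 11.5% of the 7263 tested clusters, and 820 of them carry 1 gene name, 10 several and 2 none.

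Newly made RNA was labelled with 4-thiouridine (4sU), pulled down and sequenced (4sU-seq) in 12 samples of female mouse embryonic stem cells of the 129S x Cast background. All carry METTL3, the catalytic subunit of the m6A methyltransferase, with FKBP12(F36V) at its C terminus, and a doxycycline-inducible *Xist*. In the 6 dTAG samples the cells received dTAG-13, which sends the tagged protein to degradation, for 3 h before 30 min of 4sU, and in the 6 Ctrl samples they received 4sU alone. Clones C3 and H5 each gave 3 samples to either group, so the samples come from 2 knock-in lines and not from independent mice. The cells grew on mitomycin-treated mouse fibroblasts, and the labels do not say that feeders were removed before RNA extraction.

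The tables give, for each intron, 1 fitted share of the split reads of its cluster in each condition, pooled over the 6 samples and both clones. No sample has a value of its own, so a share has no SD, clones cannot be compared, and the depth behind it is unknown. Inclusion is used here for the mean of the 2 inclusion junctions divided by that mean plus the skipping junction, from 0 (always skipped) to 1 (always included). Because the RNA came from whole cultures, the mix of cells and the splicing within a cell cannot be told apart in such a share. Of marker genes, 9 of 12 for pluripotent stem cells, 1 of 9 for fibroblasts (*Fn1*) and 0 of 7 for early differentiation had a tested cluster, and their expression levels were not measured here. No value in these tables checks the loss of METTL3 protein.

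Splicing joins exons at short signals, an AG at the end of the intron before the exon (the acceptor) and a GT, less often a GC, at the start of the intron after it (the donor). Whether the spliceosome uses both signals of a weak exon is set by splice site strength and by proteins that bind nearby. The m6A mark is placed on nascent RNA, mostly at adenosines within short motifs of which GGACT (written as DNA) is the best known, and its nuclear reader YTHDC1 is known to recruit splicing factors. The comparison asks whether the exons were used to a different degree in RNA made soon after METTL3 loss. Exons that keep the frame are commonly used by cells to swap a stretch of a protein. An exon of any length with a stop codon in the frame can direct the RNA to nonsense-mediated decay, but not every such exon does.

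The results turn on 5 exons, those with an adjusted p under 0.2, and each is an annotated coding exon. They are shown 5′ to 3′ on the strand of the gene, in GRCm38 (mm10). The first and last 2 bases, in capitals, are the acceptor and donor bases of the flanking introns, and GGACT within an exon is also in capitals. The exons lie at chr13:97122692-97122892 (+ strand, 201 nt, *Fam169a*), chr6:125025848-125025940 (+, 93 nt, *Zfp384*), chr14:27467506-27467565 (+, 60 nt, *Tasor*), chr11:104368680-104368778 (-, 99 nt, *Kansl1*) and chr12:104700365-104700520 (-, 156 nt, *Dicer1*).
Fam169a: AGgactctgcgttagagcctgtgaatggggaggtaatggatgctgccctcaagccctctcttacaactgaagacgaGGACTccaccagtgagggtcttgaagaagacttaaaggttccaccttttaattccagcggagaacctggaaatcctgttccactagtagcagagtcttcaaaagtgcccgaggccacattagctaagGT
Zfp384: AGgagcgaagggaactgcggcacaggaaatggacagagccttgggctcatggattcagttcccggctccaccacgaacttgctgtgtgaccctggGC
Tasor: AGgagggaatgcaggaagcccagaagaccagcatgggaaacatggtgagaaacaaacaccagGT
Kansl1: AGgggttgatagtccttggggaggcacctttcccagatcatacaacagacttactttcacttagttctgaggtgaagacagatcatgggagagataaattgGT
Dicer1: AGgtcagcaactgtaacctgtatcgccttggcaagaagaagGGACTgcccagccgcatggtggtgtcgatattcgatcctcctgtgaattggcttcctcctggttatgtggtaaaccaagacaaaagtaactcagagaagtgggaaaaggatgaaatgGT
The exons of *Fam169a* and *Dicer1* hold 1 GGACT each and the other 3 hold none. The exon of *Zfp384* ends at a GC donor, as do 16 of the 832 exons, whereas the remaining 816 end at GT. GGACT stood in 93 of the 832 exons (11.2%), against 124 of 1151 frame-shifting exons (10.8%) of the same length window. The match was sought on the gene strand only, and it does not show that the site is methylated.

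After dTAG-13, nearly all frame-keeping exons were without a call. The test of each cluster is the LeafCutter likelihood-ratio test over all 12 samples, whose p is a chi-square approximation, with Benjamini-Hochberg adjustment over the 7263 tested clusters. Only the exon of *Fam169a* reached an adjusted p under 0.05, which is 1 of 832 (0.120%), against 0.702% of all tested clusters and 0.539% of all cassette exons. At an adjusted p under 0.2 there were 5 exons (0.601%), against 1.58% of all tested clusters and 1.45% of all cassette exons. A p of at most 0.05 before adjustment was found for 38 exons (4.57%), against 6.84% and 5.60%. A p spread evenly from 0 to 1 would put a fraction of 0.05 of the exons there, so these 38 are not more than that. All 3 shares lay below the background, and the differences between the shares were not tested. When exons inside larger clusters were added, the shares were 1.19%, 1.82% and 5.96% of 1427 exons, so the first 2 then lay above those of all tested clusters, with exons that share clusters counted more than once. Frame-shifting exons of the same lengths had 6 (0.521%), 17 (1.48%) and 63 (5.47%) of 1151 at the 3 thresholds.

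**Figure D1:**
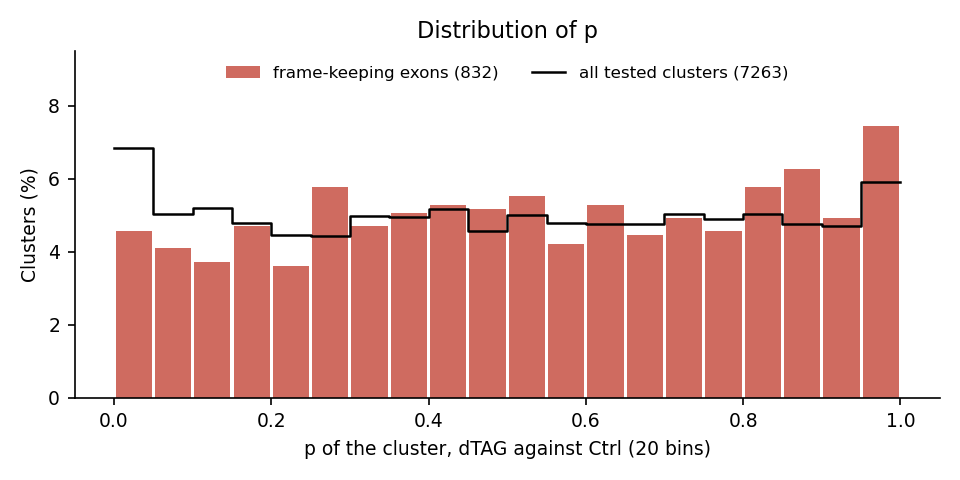
Share of clusters (y axis, %) in 20 equal bins of the p of the comparison of dTAG with Ctrl (x axis), for the 832 frame-keeping exons (bars) and all 7263 tested clusters (line). The lowest bin holds 4.57% of the frame-keeping exons and 6.84% of all tested clusters, and over all bins the bars range between 3.61% and 7.45%.

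The single exon past an adjusted p of 0.05 was more often included after dTAG-13. In *Fam169a*, inclusion of the 201-nt exon was 0.990 in dTAG and 0.951 in Ctrl (difference 0.0392, chi-square p = 8.60e-05, adjusted p = 0.0156). The skipping junction took 0.00480 of the split reads in dTAG and 0.0250 in Ctrl. Thus the exon was almost always included in both conditions, and what fell was a rare skipping junction that the annotation does not hold. With 1 minus the skipping share as the measure the difference was 0.0202, and with Benjamini-Yekutieli adjustment 0 exons had an adjusted p under 0.05, so this call was lost.

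The exon of *Zfp384*, which encodes a zinc finger transcription factor, had the largest difference of all 832 exons. Its inclusion was 0.514 in dTAG and 0.959 in Ctrl (difference -0.445, adjusted chi-square p = 0.0754). The skipping junction held 0.321 in dTAG and 0.0212 in Ctrl, and both junctions of the exon were lower, the junction into the exon at 0.432 in dTAG and 0.623 in Ctrl and that out of it at 0.247 in dTAG and 0.356 in Ctrl. A coding exon that was close to constitutive in Ctrl was thus joined in about as many transcripts as it was skipped in dTAG, by the pooled fit. The skipping junction is annotated. A second frame-keeping exon of *Zfp384*, of 183 nt, stood at 0.508 in dTAG and 0.425 in Ctrl (chi-square p = 0.115).

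The other 3 exons with an adjusted p under 0.2 were each higher in dTAG. *Tasor* encodes the scaffold of the HUSH complex, which silences transgenes and transposons, and inclusion of its 60-nt exon was 0.436 in dTAG and 0.319 in Ctrl (adjusted chi-square p = 0.121). *Kansl1* encodes the scaffold of the NSL histone acetyltransferase complex, and its 99-nt exon stood at 0.639 in dTAG and 0.544 in Ctrl (adjusted chi-square p = 0.149). In both genes skipping was a frequent choice in Ctrl, although no annotated transcript has the skipping junction. A second frame-keeping exon of *Kansl1*, of 189 nt, stood at 0.335 in dTAG and 0.354 in Ctrl (chi-square p = 0.758). For the 99-nt exon of *Kansl1* the junction into the exon held almost the same share in dTAG (0.380) and Ctrl (0.377), and the junction out of it differed, at 0.400 in dTAG and 0.328 in Ctrl. *Dicer1* encodes the enzyme that cuts precursor hairpins into miRNAs, and its 156-nt exon stood at 0.972 in dTAG and 0.936 in Ctrl (adjusted chi-square p = 0.194). Its 2 junctions had opposite signs, the one into the exon at 0.303 in dTAG and 0.354 in Ctrl and the one out of it at 0.683 in dTAG and 0.613 in Ctrl. Among all cassette exons, 0.664% had an adjusted p under 0.2 with higher inclusion in dTAG and 0.788% with lower inclusion, and the frame-keeping exons had 4 and 1 of 832.

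**Figure D2:**
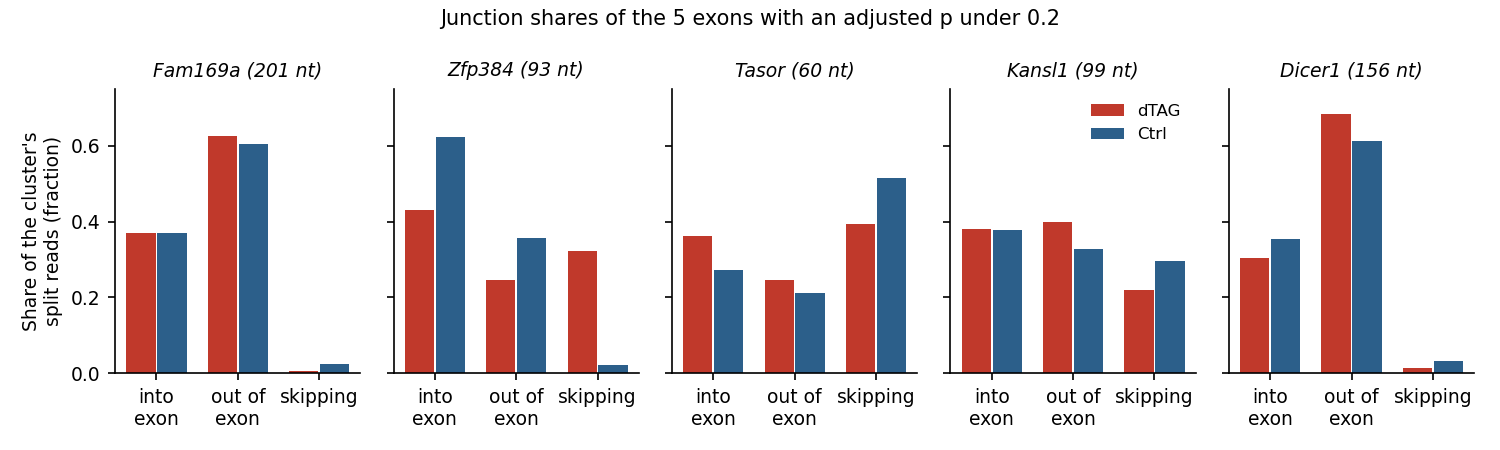
Share of the split reads of the cluster (y axis, fraction, pooled fitted values without error) on the junction into the exon, the junction out of the exon and the skipping junction (x axis), for the 5 exons with an adjusted p under 0.2, with dTAG left of Ctrl. The skipping junction of *Zfp384* holds 0.321 in dTAG and 0.0212 in Ctrl, while in the other 4 exons it is lower in dTAG.

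The direction was mixed. Of the 38 exons with a p of at most 0.05, 23 were higher in dTAG (60.5%) and 15 lower. Both inclusion junctions had the sign of the inclusion difference in 19 of the 38, and in the other 19, *Sec24c*, *Ktn1* and *Ptprg* among them, 1 junction had the opposite sign. Of all 2411 cassette exons, 2.49% had such a p with higher inclusion in dTAG and 3.11% with lower inclusion. Among the cassette exons with such a p, 44.4% were thus higher in dTAG, and among the frame-shifting exons with such a p also 44.4%. The difference from 60.5% was not tested. Over all 832 exons, without regard to p, 364 (43.8%) were higher and 468 lower, with a median difference of -0.00274. That small shift was not particular to these exons, as the frame-shifting exons had a share of 42.6% and a median of -0.00314, and all cassette exons 42.9% and -0.00291. A total of 272 exons differed by less than 0.01 in inclusion. A difference of at least 0.1 in either direction was seen in 23 exons (2.76%), against 3.57% of all cassette exons. Of these 23, 9 were higher and 14 lower in dTAG. Such a difference was seen in 23.7% of the 38 exons with a p of at most 0.05. The p comes from the same split reads as the difference, so this higher share is not a separate result. Still, 9 of the 23 had a p of at most 0.05 and 14 a p above it, so a large pooled difference did not always come with a low p.

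**Figure D3:**
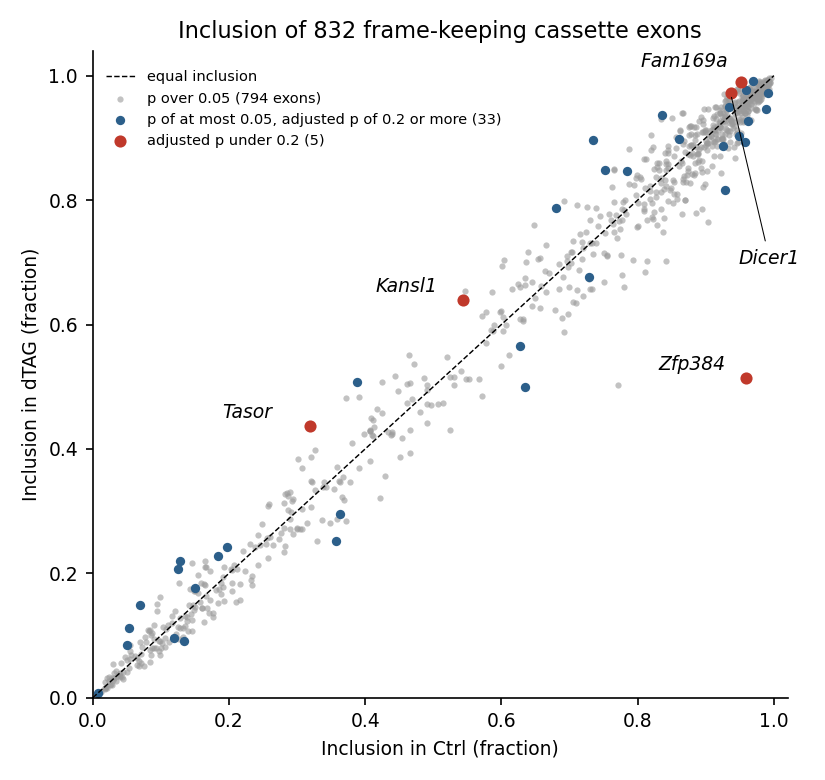
Inclusion in dTAG (y axis) against inclusion in Ctrl (x axis) of the 832 frame-keeping exons, as fractions of the pooled fit. The 5 labelled exons have an adjusted p under 0.2, of which *Zfp384* lies far below the line of equal inclusion at 0.514 in dTAG and 0.959 in Ctrl, and 794 exons have a p above 0.05, 14 of them with a difference of at least 0.1.

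*Ppp4r2*, which encodes a regulatory subunit of protein phosphatase 4, shows this most clearly and was chosen after its values were seen. Its 144-nt exon had the second largest difference, with an inclusion of 0.502 in dTAG and 0.771 in Ctrl, yet the p was 0.0880. Its 2 junctions went opposite ways, with 0.286 in dTAG and 0.117 in Ctrl into the exon and 0.382 in dTAG and 0.754 in Ctrl out of it, and with the lower junction alone inclusion was 0.463 in dTAG and 0.475 in Ctrl. *Tnrc18* had the largest difference towards inclusion, with its 129-nt exon at 0.897 in dTAG and 0.735 in Ctrl (chi-square p = 0.0153, adjusted p = 0.454). The 66-nt exon of *Depdc5*, a subunit of the GATOR1 complex that holds back mTORC1 when amino acids are scarce, stood at 0.499 in dTAG and 0.635 in Ctrl (chi-square p = 0.00715, adjusted p = 0.319). In *Bag6*, which encodes a chaperone of tail-anchored and mislocalised proteins, the 147-nt exon stood at 0.508 in dTAG and 0.389 in Ctrl (chi-square p = 0.0280, adjusted p = 0.603). With *Zfp384* and *Tasor*, the exons of *Tnrc18*, *Depdc5* and *Bag6* form the 5 largest differences among exons with a p of at most 0.05.

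The exons ranked 6 to 25 by p had adjusted p values of 0.319 to 0.603, and none passed the test. Among them were nuclear factors that had small differences near full inclusion. *Nup153*, a nucleoporin of the nuclear basket, had 0.992 in dTAG and 0.969 in Ctrl for its 192-nt exon. *Kdm2a*, a histone H3K36 demethylase that binds CpG islands, had 0.947 in dTAG and 0.988 in Ctrl. *Rtcb*, the catalytic subunit of the tRNA ligase, had 0.972 in dTAG and 0.992 in Ctrl. In these 3 exons the skipping junction was rare. It held 0.00422 in dTAG and 0.0160 in Ctrl for *Nup153*, 0.0271 in dTAG and 0.00614 in Ctrl for *Kdm2a*, and 0.0143 in dTAG and 0.00417 in Ctrl for *Rtcb*. *Rprd2*, a protein that binds the C-terminal domain of RNA polymerase II, had 0.848 in dTAG and 0.752 in Ctrl.

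The rest of this range held genes of varied roles. *Evl* and *Cobl* both promote the growth of actin filaments, and their differences had opposite signs, *Evl* with 0.816 in dTAG and 0.928 in Ctrl and *Cobl* with 0.788 in dTAG and 0.680 in Ctrl. *Ptprg* and *Ptpn12* encode tyrosine phosphatases, a receptor type and a cytosolic one, and had 0.207 in dTAG and 0.125 in Ctrl and 0.902 in dTAG and 0.948 in Ctrl. *Sec24c*, a cargo adaptor of the COPII coat, had 0.177 in dTAG and 0.149 in Ctrl. *Ambra1*, a regulator of autophagy, had 0.936 in dTAG and 0.835 in Ctrl. The range also held *Susd6*, a membrane protein with a sushi domain, at 0.296 in dTAG and 0.363 in Ctrl, and *Etl4*, whose exon is mostly skipped, at 0.113 in dTAG and 0.0537 in Ctrl. *Klhl24*, a substrate adaptor of a cullin ubiquitin ligase, was the one exon of the range annotated as untranslated, at 0.847 in dTAG and 0.784 in Ctrl. *Lrch2* had 0.676 in dTAG and 0.729 in Ctrl, but its 2 junctions went opposite ways, with 0.282 in dTAG and 0.191 in Ctrl into the exon and 0.525 in dTAG and 0.653 in Ctrl out of it, and its direction turned with the lower junction alone.

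Of the 832 exons, 664 (79.8%) had exactly the bounds of a wholly coding exon of a GENCODE vM21 protein-coding transcript. A further 26 were coding in part, 30 untranslated, 16 from noncoding transcripts, and 62 had no annotated exon with those bounds. Another 34 were in transcripts annotated for nonsense-mediated decay and, with those bounds, in no protein-coding one. The coding exons had a median inclusion of 0.870 in dTAG and 0.873 in Ctrl, and 29 of them (4.37%) had a p of at most 0.05, 18 higher and 11 lower in dTAG. The exons of decay transcripts had a median of 0.134 in dTAG and 0.130 in Ctrl, and 3 of 34 (8.82%) had a p of at most 0.05. Those without annotation had a median of 0.103 in dTAG and 0.0939 in Ctrl, and 3 of 62 (4.84%) had such a p. Of the untranslated exons 3 of 30 (10%) had one, and of those coding in part or from noncoding transcripts 0. The share was 6.84% of all tested clusters and 5.60% of all cassette exons, and the differences were not tested. All 5 exons with an adjusted p under 0.2 were coding. The skipping junction was annotated for 552 exons, of which 29 (5.25%) had a p of at most 0.05, and not for 280, of which 9 (3.21%) had one. Over all 832 exons the share was 4.57%. The skipping junction was annotated in only 1 of the 5 leading exons, that of *Zfp384*.

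**Figure D4:**
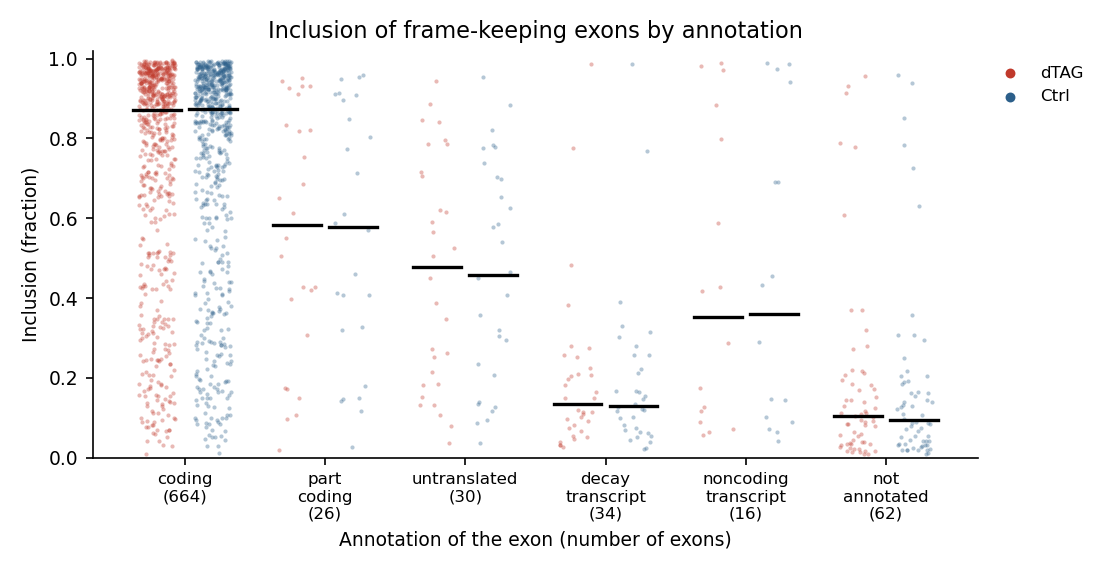
Inclusion (y axis, fraction) of each frame-keeping exon in dTAG (left) and Ctrl (right) by its annotation (x axis, with the number of exons), with black lines at the medians. Coding exons have medians of 0.870 in dTAG and 0.873 in Ctrl, and exons of decay transcripts 0.134 in dTAG and 0.130 in Ctrl.

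A length divisible by 3 did not always mean an open frame. The frame on entry could be set for 768 exons, from the annotated coding exon itself or from the coding exon upstream. Of the 104 such exons that are not wholly coding, 85 held a stop codon in that frame. Of these 85, 30 were from decay transcripts and 11 were coding in part in a protein-coding transcript. The 85 were mostly skipped, with a median inclusion of 0.111 in dTAG and 0.118 in Ctrl. Against 4.57% of all 832 exons, 5 of the 85 (5.88%) had a p of at most 0.05, 3 higher and 2 lower in dTAG. The first bases of 3 of them, exons annotated in decay transcripts and in no protein-coding one, are shown 5′ to 3′ on the - strand of GRCm38. They run from the acceptor (capitals) to the first in-frame stop codon (capitals). They belong to the exons at chr1:156892908-156893012 (105 nt, *Ralgps2*), chr9:48494283-48494387 (105 nt, *Rbm7*) and chr5:123735822-123735896 (75 nt, *Rsrc2*).
Ralgps2: AGgtatccctacatcatcaccctTAG
Rbm7: AGtatttgaggcagagagccataTAG
Rsrc2: AGttctcacagtgtaaccTGA
The stop codon begins at base 22 of the exon in *Ralgps2* and *Rbm7*, and at base 17 in *Rsrc2*. *Ralgps2*, an exchange factor for the GTPase RalA, had an inclusion of 0.150 in dTAG and 0.0695 in Ctrl (chi-square p = 0.0133, adjusted p = 0.428). *Rbm7*, the RNA-binding subunit of the NEXT complex that brings nuclear RNA to the exosome, had 0.0917 in dTAG and 0.134 in Ctrl (chi-square p = 0.0144, adjusted p = 0.439). *Rsrc2*, an arginine-serine-rich protein chosen after its values were seen, had 0.0956 in dTAG and 0.119 in Ctrl (chi-square p = 0.0466, adjusted p = 0.710). The other 2 were unannotated exons, 1 of 129 nt in the deubiquitinase gene *Usp31* with 0.219 in dTAG and 0.129 in Ctrl (adjusted chi-square p = 0.571) and 1 of 84 nt in *Vdac2*, a channel of the outer mitochondrial membrane, with 0.00835 in dTAG and 0.00789 in Ctrl (adjusted chi-square p = 0.633). The exon of *Usp31* holds 3 GGACT. The *Vdac2* exon is almost never used, and its sign turned with the lower junction alone.

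In Ctrl, the frame-keeping exons were spread more evenly over the range of inclusion than the frame-shifting ones. Their median inclusion was 0.809 in dTAG and 0.821 in Ctrl, against 0.881 in dTAG and 0.891 in Ctrl for frame-shifting exons. An inclusion above 0.9 in Ctrl was found for 297 frame-keeping exons (35.7%) and 550 frame-shifting ones (47.8%), and one below 0.1 for 74 (8.89%) and 142 (12.3%). Among the 664 and 822 wholly coding exons alone, the Ctrl medians were 0.873 and 0.937. Codons also sat differently on the exon borders, as 421 of 768 frame-keeping exons (54.8%) began with a whole codon, against 414 of 1038 frame-shifting exons (39.9%). Only exons seen both joined and skipped form such clusters, so these are not shares of all exons of the genes, and the differences between the classes were not tested.

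**Figure D5:**
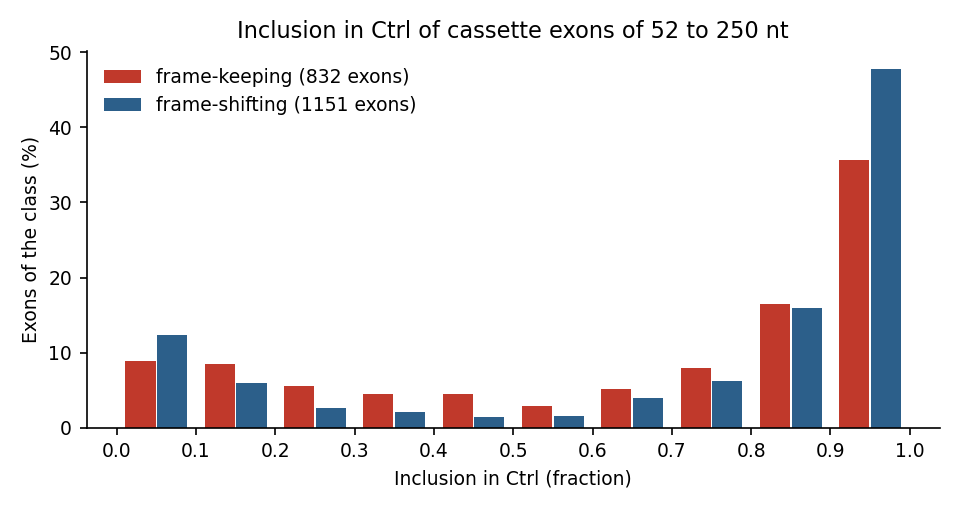
Share of exons (y axis, %) in bins of inclusion in Ctrl (x axis, fraction), for the 832 frame-keeping (left bars) and 1151 frame-shifting cassette exons (right bars) of 52 to 250 nt. The bin from 0.9 to 1.0 holds 35.7% of the frame-keeping and 47.8% of the frame-shifting exons, and each bin from 0.1 to 0.9 holds a larger share of the frame-keeping than of the frame-shifting exons.

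Exons with a low p were found at every level in Ctrl and at every length. A p of at most 0.05 was found in 4 of 74 exons (5.41%) with a Ctrl inclusion of up to 0.1. From there to 0.5 it was found in 11 of 191 (5.76%) and from 0.5 to 0.9 in 10 of 270 (3.70%). Above 0.9 it was found in 13 of 297 (4.38%). By length there were 17 of 290 exons (5.86%) of up to 90 nt and 14 of 370 (3.78%) of 91 to 150 nt. Longer exons had 7 of 172 (4.07%). These shares lay near the 4.57% of all 832 exons and the 5.60% of all cassette exons, and their differences were not tested. Among exons with GGACT, 6 of 93 (6.45%) had such a p, 5 higher and 1 lower in dTAG, and among those without it 32 of 739 (4.33%), 18 higher and 14 lower. Both shares lay below the 6.84% of all tested clusters, but the share with GGACT lay above the 5.60% of all cassette exons. The difference between exons with and without GGACT was not tested. The median exon was 108 nt long with 48.6% G and C, between introns of 1434 nt upstream and 1604 nt downstream. The 2 junctions of an exon were at least 2-fold apart in Ctrl for 157 exons, of which 7 (4.46%) had a p of at most 0.05. In *Nutf2*, chosen after its values were seen, the 2 junctions went opposite ways, as the junction into its 72-nt exon held 0.863 in dTAG and 0.573 in Ctrl and the junction out of it 0.1005 in dTAG and 0.337 in Ctrl (chi-square p = 0.0509, adjusted p = 0.730).

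Genes of the m6A pathway had 6 frame-keeping exons in 4 genes, and none had a p of at most 0.05, against 4.57% of all 832 exons. *Spen*, which encodes a large RNA-binding repressor of the RBM15 family, had 2 of them, a 114-nt exon at 0.946 in dTAG and 0.897 in Ctrl (chi-square p = 0.164) and a 69-nt exon at 0.330 in dTAG and 0.289 in Ctrl (chi-square p = 0.433). *Mettl16*, the methyltransferase of the U6 snRNA, had a 66-nt exon with an in-frame stop at 0.274 in dTAG and 0.280 in Ctrl (chi-square p = 0.608). *Wtap*, a subunit of the writer complex, had an unannotated 54-nt exon that is nearly always skipped, at 0.0144 in dTAG and 0.0177 in Ctrl (chi-square p = 0.748).

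Splicing regulators had 29 exons in 22 of 110 listed genes. Against 6.84% of all tested clusters and 5.60% of all cassette exons, 1 of the 29 (3.45%) had a p of at most 0.05, that of *Rbm7*, lower in dTAG. The next by p were exons of *Tial1*, *Bclaf1* and *Hnrnpdl*, which encode RNA-associated proteins, with exons annotated as untranslated or from decay transcripts. They stood at 0.184 in dTAG and 0.126 in Ctrl (chi-square p = 0.0534), 0.197 in dTAG and 0.154 in Ctrl (chi-square p = 0.0862), and 0.383 in dTAG and 0.301 in Ctrl (chi-square p = 0.124). Chromatin and DNA methylation genes had 40 exons, with 3 at a p of at most 0.05, *Tasor* and *Kdm5a* higher and *Kdm2a* lower in dTAG. That is 7.50%, against 6.84% of all tested clusters and 5.60% of all cassette exons, and the difference was not tested. *Kansl1* is not on the list. *Kdm5a*, a histone H3K4 demethylase, had 0.897 in dTAG and 0.861 in Ctrl for a 135-nt exon (adjusted chi-square p = 0.699). The decay exon of *Morc3*, a chromatin ATPase, had 0.0317 in dTAG and 0.0204 in Ctrl (chi-square p = 0.241).

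The cytoskeleton and adhesion list had 31 exons. Against 6.84% of all tested clusters and 5.60% of all cassette exons, 1 of the 31 (3.23%) had a p of at most 0.05. That was an 84-nt exon of *Ktn1*, which encodes kinectin, an endoplasmic reticulum protein that binds kinesin, at 0.243 in dTAG and 0.197 in Ctrl (chi-square p = 0.00904, adjusted p = 0.354). The junction into that exon held 0.116 in dTAG and 0.122 in Ctrl, and with the lower junction alone the difference was 0.0062, against 0.0452. *Ktn1* was the one gene with 4 frame-keeping cassettes, and the other three, of 69, 87 and 72 nt, had a p of 0.425, 0.782 and 0.367. Their inclusion was 0.503 in dTAG and 0.531 in Ctrl, 0.589 in dTAG and 0.602 in Ctrl, and 0.355 in dTAG and 0.367 in Ctrl. The microtubule kinase gene *Mark2* had a large pooled difference, 0.765 in dTAG and 0.904 in Ctrl, with a p of 0.0846. The motor genes *Kif13a* and *Myo5a* had a p of 0.119 and 0.127.

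No exon of a gene on the other 4 lists had a p of at most 0.05, against 4.57% of all 832 exons. The lists are not complete, and genes off them with related roles had exons at such a p, among them *Sec24c*, *Ralgps2* and the DNA repair nuclease gene *Mre11a* (0.9502 in dTAG and 0.9334 in Ctrl, chi-square p = 0.0408). They held 21 exons for membrane trafficking, 24 for signalling kinases and GTPase regulators, 19 for DNA repair and cell cycle, and 3 for pluripotency. The lowest p of each list was 0.0521 (*Snx16*, an endosomal sorting nexin), 0.0790 (*Gab1*, a docking protein of receptor tyrosine kinases), 0.303 (*Polq*, DNA polymerase theta) and 0.134 (*Tbx3*, a T-box transcription factor of naive stem cells). The 60-nt exon of *Tbx3* stood at 0.329 in dTAG and 0.285 in Ctrl, and the 153-nt exon of *Tfcp2l1*, another transcription factor of naive stem cells, at 0.927 in dTAG and 0.920 in Ctrl (chi-square p = 0.720). The decay exon of *Polq* stood at 0.483 in dTAG and 0.390 in Ctrl. The remaining exons named from these lists were those of *Fnbp4*, *Wdfy3* and *Sec31a*, of *Pip5k1c*, *Map4k3* and *Map3k3*, of *Fancm*, *Cdc25a* and *Trp53bp1*, and of *Mycn*, with p values of 0.126 to 0.411.

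Several exons used in about as many transcripts as they were skipped had pooled values close to those in Ctrl. The 5 nearest to an inclusion of 0.5 in Ctrl were those of *Spg20* (0.473 in dTAG and 0.507 in Ctrl), *Dlg1* (0.470 in dTAG and 0.497 in Ctrl), *Rims2* (0.472 in dTAG and 0.491 in Ctrl), *Kat7* (0.494 in dTAG and 0.491 in Ctrl) and *Tcof1* (0.503 in dTAG and 0.491 in Ctrl), with p values of 0.486 to 0.912. *Kat7* encodes a histone acetyltransferase, *Dlg1* a scaffold of cell junctions, and *Rims2* a protein known from the presynaptic active zone. The 5 with the highest p among exons at 0.2 to 0.8 in Ctrl were in *Enox1*, *Chd2*, *Fmr1*, *Sec16a* and *Rbm27*, with differences between -0.00346 and 0.00498 and p values of 0.989 to 0.996. *Fmr1*, whose product FMRP binds mRNA and is lost in fragile X syndrome, had 0.662 in dTAG and 0.658 in Ctrl for its 63-nt exon. No interval can be given for these differences, so a high p does not show that the levels are equal.

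At the low end, the 5 least included exons in Ctrl were those of *Vdac2*, *Clta* (clathrin light chain A), *Snrnp70* (the U1 snRNP 70-kDa protein), *Wtap* and *Gtf2a1* (a subunit of TFIIA), with Ctrl inclusion of 0.00789 to 0.0181. Apart from the exon of *Clta*, none of the 5 is annotated, and the 4 others hold an in-frame stop codon. At the length limits, the 21 shortest exons had 54 nt and the 2 longest 249 nt, in *Zc3h4* and *Cars*. The next lengths divisible by 3 outside the window were 51 nt, with 15 exons of which 2 had a p of at most 0.05, and 252 nt, with 1 exon. None of the 21 exons of 54 nt had such a p, the lowest being 0.0865.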

How the data were processed

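4sU-seq libraries (TruSeq Stranded Total RNA) of 6 dTAG and 6 Ctrl samples were mapped by the authors to mm10 with STAR 2.5.2b, keeping unique mappers, and split reads were joined into clusters and tested with LeafCutter, both clones in 1 fit. The deposited values used are the fitted share of each intron per condition, a fraction from 0 to 1, and per cluster the log-likelihood ratio score with its degrees of freedom. Columns with the authors' own effect sizes, differences, p-values and adjusted p-values were not used. Here p is the chi-square tail of 2 times the deposited score, adjusted by Benjamini-Hochberg over 7263 of 8706 clusters that were tested, so the test remains the fit made by the authors and could not be refitted, nor checked against an exact test. The test sets the condition against the spread between the 12 samples, which come from 2 clones. The fit has the condition only, with no term for clone or for pairing of replicates. Depth per sample is unknown.

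Cassettes, lengths and inclusion were computed with pandas 2.3.3, numpy 2.4.6, scipy 1.17.1, statsmodels 0.14.6 and Python 3.11.15, sequences were read with pysam 0.24.0 and samtools 1.23.1 from GRCm38.p6, and plots were made with matplotlib 3.10.9. Of 829 exons whose gene has 1 known strand in GENCODE vM21, all 829 had splice motifs on that strand. For a wholly coding exon the frame of 1 annotated transcript was taken. For the other exons, none was set where several frames could enter from the coding exon upstream. The steps were tested on simulated data.

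Members and gene lists were chosen with earlier results of these data known. Exons are named by a rule that gave 68: adjusted p under 0.2, the 25 lowest p, the 5 largest differences with a p of at most 0.05, the 5 nearest 0.5, the 5 least included, up to 4 per gene list, the 5 highest p, and the length limits. Alternatives changed the adjustment, the membership and the measure of inclusion.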

Additional observations from a re-analysis of the deposited data

How the results depend on the processing

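No paired analysis was possible because the tables hold 1 pooled value per condition, and for the same reason no replicate could be left out. With Benjamini-Yekutieli adjustment, 0 exons had an adjusted p under 0.05 and 1 under 0.2, against 1 and 5, while 38 had an unadjusted p of at most 0.05. When exons inside larger clusters were added (1427 exons), the counts were 17 (1.19%), 26 (1.82%) and 85 (5.96%) and 4.56% differed by at least 0.1. The 16 added exons with an adjusted p under 0.05 share 7 clusters, and the p of such a cluster covers introns beyond the exon. The share of exons that differed by at least 0.1 was 1.56% with 1 minus the skipping share, 4.69% with the lower of the 2 junctions and 0.24% at a threshold of 0.2, against 2.76%. The other 30 values for counts and shares, with exons of 30 to 250 nt, annotated exons, 1 gene name, balanced junctions or another measure of inclusion, stayed within 1.5 times the count or within the 95% binomial interval of the share. Among them, the shares higher in dTAG with 1 minus the skipping share (43.8% of all exons and 60.5% at a p of at most 0.05) could not differ from the main ones. The shares of a cluster of 3 introns add up to 1, so inclusion depends on the skipping share alone. For the same reason none of the 68 named exons could change sign with 1 minus the skipping share, so the 0 found there is no check. With the lower junction 8 of the 68 changed sign, among them *Lrch2* (0.0441) and *Vdac2* (-0.00383) with a p of at most 0.05. Unknown depth limits every value near 0 or 1, where a few split reads may set the skipping share.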
